A study of Homo sapiens with 4 samples.

Results

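The genes described are 10 core members of transforming growth factor beta (TGF-beta) signalling: the ligands TGFB1 and TGFB2, the receptors TGFBR1, TGFBR2 and TGFBR3, and the intracellular SMADs SMAD2, SMAD3, SMAD4, SMAD6 and SMAD7. They were taken by gene symbol, and all 10 were found among the 20003 genes of the files. RNA sequencing had been done on HCT116, a cell line derived from a human colorectal carcinoma, with 2 libraries per group. The shPLKO group (replicates 1 and 2) has a WT genotype label and is the control, for which the series design text uses the name shScramble. The shNUDT21 group (replicates 1 and 5) has the genotype label NUDT21 knockdown. All 4 libraries are from untreated cells of the same line. NUDT21 encodes the part of cleavage factor Im that recognises UGUA in pre-mRNA ahead of the site of cleavage and polyadenylation. Whether 1 and 5 number hairpins or cultures is not given in the sources used here, so the p-values measure only how far these libraries differ, and that spread may be technical.

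TGF-beta ligands are secreted in a latent form. Once released, a ligand binds TGFBR2, which recruits and phosphorylates TGFBR1, and TGFBR3 (betaglycan) presents ligand to this pair. TGFBR1 then phosphorylates SMAD2 and SMAD3, which join SMAD4 and enter the nucleus to regulate transcription, while SMAD6 and SMAD7 are inhibitory SMADs that block signalling at the receptors. SMAD7 is itself a target gene of the pathway and so acts in negative feedback. In colon epithelium the pathway restrains growth, and colorectal cancers often lose it, in tumours with defective mismatch repair mostly through a repeat in TGFBR2.

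That repeat is shown because HCT116 is known to carry a frameshift in it. The TGFBR2 level in these cells is thus that of a mutated gene. Signalling through the receptor was not measured, so a changed target gene is not read here as changed signalling. The repeat is a run of 10 adenines in the coding sequence of TGFBR2 on chromosome 3. Its first base is base 374 counted from the A of the start codon. The reference sequence (GENCODE v29, GRCh38, given 5′ to 3′ on the sense strand, with the run in capitals) reads as follows.
TGFBR2: attatgaaggAAAAAAAAAAgcctggtgag
The deposited values give 1 level per gene and do not show the base sequence of the transcripts.

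Values were read as RPKM, reads scaled by the length of the gene model and by the total reads of the library. No unit is stated, and comparing levels between genes relies on gene model lengths that are not given. Recovered depth was 29963980 to 30459886 reads per library, and 16143 to 16336 genes were above 0. NUDT21 stood at 24.3 and 26.9 RPKM in shPLKO 1 and 2 and at 3.96 and 2.999 RPKM in shNUDT21 1 and 5, or 13.6% of the control mean (log2 fold change -2.58, SE 0.16, limma adjusted p 0.0406). Of 7 markers of colon epithelium, 6 had a mean above 1 RPKM, with VIL1 at 0.0609 to 0.133 RPKM as the exception. Their summed level was 9871 and 9219 RPKM in the controls against 3426 and 4153 RPKM in shNUDT21 1 and 5. That difference lay in the keratins KRT8, KRT18 and KRT19, while EPCAM (130 and 132 against 162 and 180 RPKM), CDH1 and CDX2 were higher in both knockdown libraries. The 3 endothelial markers summed to at most 0.487 RPKM and the 6 fibroblast markers to 5.29 to 7.81 RPKM, nearly all COL1A1. The 4 leukocyte markers summed to 24.5 to 92.6 RPKM, nearly all CD68, with PTPRC at most 0.0456 RPKM. The part of these differences in the results below was not tested.

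SMAD7 fell in shNUDT21 to 31.9% of its control level, and it was the only 1 of the 9 pathway genes tested that passed. SMAD3 and SMAD6 were lower in both knockdown libraries than in both controls, at 63.0% and 55.3% of control, without passing. TGFB1, TGFBR1, SMAD2 and SMAD4 were higher in both, with ratios of 1.40 to 1.85, also without passing. TGFBR2 and TGFBR3 overlapped between the groups. TGFB2 was too low to be tested.

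The test was limma on log2(RPKM + 1) over 11124 genes whose mean reached 1 RPKM, two-sided, with a Benjamini-Hochberg adjusted p under 0.05 over all of them as the threshold. Fold changes on this scale understate the change of genes with low values, so ratios of mean RPKM are given as well. Over all genes tested, 5.82% were called, 2.61% higher and 3.21% lower. The lowest adjusted p over all of them was 0.0406 (limma), so every call lay between 0.0406 and 0.05. Of the 9 pathway genes tested, 1 was called (11.1%), 0 higher and 1 lower, and 7 (77.8%) had an unadjusted p under 0.05 (limma), against 33.9% of all genes tested. With the trend of GC content and transcript length removed, 3 of the 9 had such a p, near the share over all genes (3368 of 11051). The libraries of the groups did not overlap for 7 of the 9 (4 higher, 3 lower), against 66.2% of all genes tested, so that share was near the background. The median log2 fold change of the 9 was 0.37, against -0.003 over all genes. It was 0.14 with the GC content and length trend removed and 0.07 without shNUDT21 5.

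**Figure D1:**
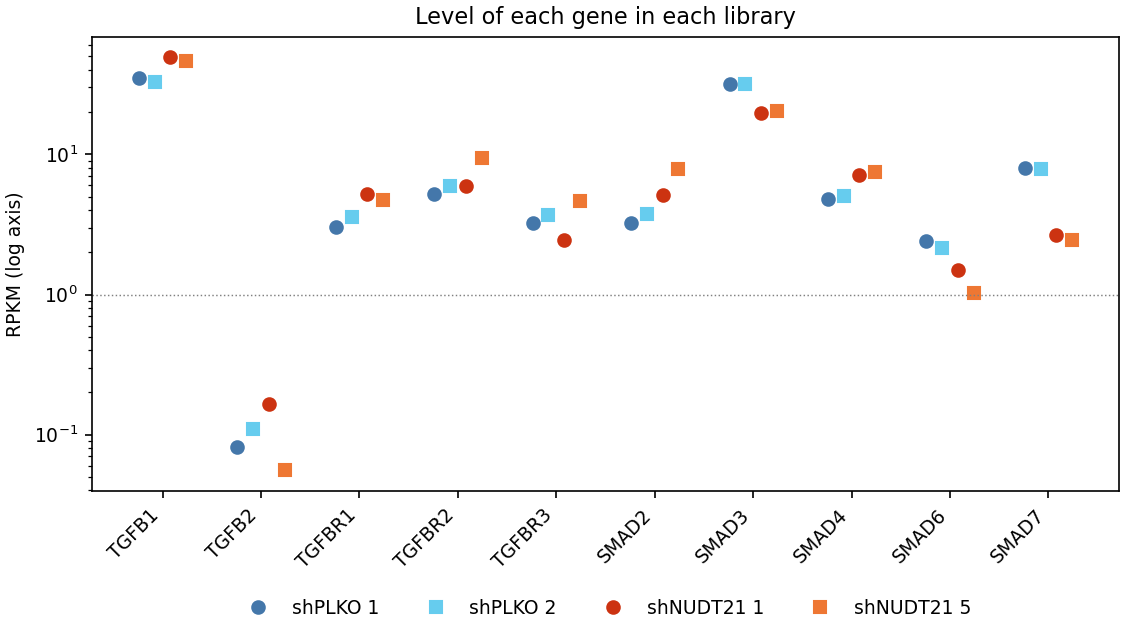
Level in RPKM (log axis) of the 10 genes in each library, with blue symbols for shPLKO 1 and 2 and red and orange symbols for shNUDT21 1 and 5. The dotted line marks 1 RPKM. SMAD7 stands at 7.96 and 7.92 RPKM in the controls and at 2.64 and 2.43 RPKM in the knockdown libraries, while TGFB2 stays under the line in all 4.

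Of the ligands, TGFB1 was abundant and TGFB2 scarce. TGFB1 stood at 35.0 and 33.0 RPKM in shPLKO 1 and 2 and at 49.2 and 46.2 RPKM in shNUDT21 1 and 5. The knockdown libraries were both above the controls, with a ratio of 1.40 (log2 fold change 0.48, SE 0.13, limma adjusted p 0.0811). Exons of TGFB1 overlap those of HNRNPUL1 on the opposite strand by 215 bases, and the use of strand in counting is not given in the sources used here. TGFB2 stood at 0.0820 and 0.110 RPKM in the controls and at 0.165 and 0.0556 RPKM in shNUDT21 1 and 5. These levels rest on 15, 20, 30 and 10 reads, and the groups overlapped. Exons of TGFB2 overlap a noncoding gene on the same strand by 1371 bases. The 95% counting interval was 0.111 to 0.236 RPKM in shNUDT21 1 and 0.0267 to 0.102 RPKM in shNUDT21 5. Such intervals cover counting error only, since the reads have no molecular identifiers.

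Of the receptors, TGFBR1 was higher in both knockdown libraries, and the other two differed more between the knockdown libraries than between the controls. TGFBR1, the kinase that phosphorylates SMAD2 and SMAD3, stood at 3.01 and 3.55 RPKM in the controls and at 5.19 and 4.70 RPKM in shNUDT21 1 and 5. The groups did not overlap (ratio 1.51, log2 fold change 0.48, SE 0.14, limma adjusted p 0.0925).

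TGFBR2, the ligand-binding kinase with the repeat printed above, stood at 5.18 and 5.98 RPKM in the controls, 5.92 RPKM in shNUDT21 1 and 9.43 RPKM in shNUDT21 5. Only shNUDT21 5 was above both controls. The ratio of means was 1.37 (log2 fold change 0.37, 95% interval -0.24 to 0.98, limma adjusted p 0.321). TGFBR3, the co-receptor, stood at 3.24 and 3.70 RPKM in the controls, with shNUDT21 1 below both at 2.44 RPKM and shNUDT21 5 above both at 4.67 RPKM. Its ratio of means was 1.02 (log2 fold change -0.02, 95% interval -0.72 to 0.68, limma adjusted p 0.970). Without shNUDT21 1 its log2 fold change was 0.34, and without shNUDT21 5 it was -0.38, each with 1 knockdown library left.

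Neither receptor-activated SMAD passed the test. SMAD2 stood at 3.24 and 3.77 RPKM in the controls and at 5.13 and 7.82 RPKM in shNUDT21 1 and 5, so both knockdown libraries were above the controls, shNUDT21 5 by more. The ratio was 1.85 (log2 fold change 0.71, SE 0.21, limma adjusted p 0.0994). SMAD3, the more abundant of the pair, stood at 31.7 and 32.0 RPKM in the controls and at 19.7 and 20.4 RPKM in shNUDT21 1 and 5. Both knockdown libraries were below both controls, and the libraries within each group lay close together. The log2 fold change was -0.64 (SE 0.12), and the limma adjusted p of 0.0512 lay just outside the threshold. Exons of SMAD3 overlap an antisense gene by 182 bases.

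SMAD4, the common partner of SMAD2 and SMAD3, stood at 4.82 and 5.07 RPKM in the controls and at 7.16 and 7.43 RPKM in shNUDT21 1 and 5. It was higher in both knockdown libraries and close within each group (ratio 1.47, log2 fold change 0.48, SE 0.12, limma adjusted p 0.0751). Its exons overlap another annotated coding gene on the same strand by 967 bases, so reads could be shared.

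Of the inhibitory SMADs, SMAD7 fell and SMAD6 did not pass. SMAD7 stood at 7.96 and 7.92 RPKM in shPLKO 1 and 2 (835 and 827 reads) and at 2.64 and 2.43 RPKM in shNUDT21 1 and 5 (275 and 251 reads). Both knockdown libraries were far below the controls, and within each group the 95% counting intervals overlapped. The log2 fold change was -1.34 (SE 0.12, 95% interval -1.66 to -1.02, limma adjusted p 0.0406). The call ended without shPLKO 1 (adjusted p 0.335), without shPLKO 2 (adjusted p 0.315) and with no filter on low values (adjusted p 0.0653), and the log2 fold change lay between -1.38 and -1.30 whichever library was left out.

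SMAD6, which is best known for blocking the BMP branch of the family, stood at 2.39 and 2.15 RPKM in the controls and at 1.49 and 1.02 RPKM in shNUDT21 1 and 5. The groups did not overlap (ratio 0.553, log2 fold change -0.54, SE 0.16, limma adjusted p 0.0913).

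**Figure D2:**
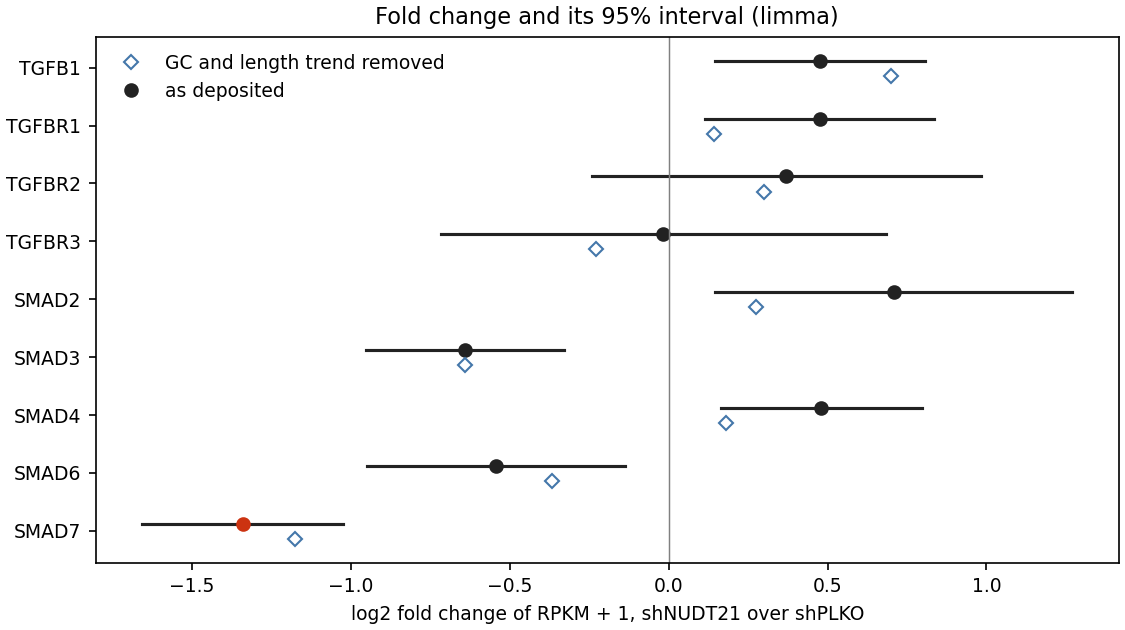
Log2 fold change of RPKM + 1, shNUDT21 over shPLKO, for the 9 genes tested. Circles with lines give the limma estimate and its 95% interval from the values as deposited, red where the adjusted p is under 0.05, and open diamonds the estimate with the trend of GC content and transcript length removed. SMAD7 is at -1.34 and -1.18, while SMAD2 goes from 0.71 to 0.28.

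The fold changes of several of these genes moved when the trend of GC content and transcript length over all genes was removed. Whether that trend is technical or part of the knockdown was not tested, nor was the share of each feature in it. GC content (the share of G and C bases) of the principal GENCODE v29 transcript was 39.0% for TGFBR1, 40.2% for SMAD2 and 41.1% for SMAD4, against a median of 50.3% over the genes tested. Transcript length was 6516, 34526 and 8769 bases for these genes in the same order, against a median of 3092. The gene model that the values imply for SMAD2 had 17883 bases. With the trend removed, the log2 fold changes of TGFBR1, SMAD2 and SMAD4 were 0.14, 0.28 and 0.18 (limma adjusted p 0.467, 0.348 and 0.307). TGFB1, at 63.5% GC, went the other way, from 0.48 to 0.70 (adjusted p 0.0560). SMAD3, at 50.4% GC, stayed at -0.64 (adjusted p 0.0596). SMAD7 and SMAD6, at 58.7% and 58.8% GC, stood at -1.18 (adjusted p 0.0484) and -0.37 (adjusted p 0.184). After this removal, 157 of all genes were called higher and 122 lower, against 290 and 357 on the values as deposited.

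In the controls the order of levels ran from TGFB1 (34.0 ± 1.44 RPKM, SD, n = 2) and SMAD3 (31.9 ± 0.18) through SMAD7 (7.94 ± 0.026), TGFBR2 (5.58 ± 0.57) and SMAD4 (4.95 ± 0.18) to SMAD2, TGFBR3 and TGFBR1 (3.51 ± 0.37, 3.47 ± 0.32 and 3.28 ± 0.38), with SMAD6 (2.27 ± 0.17) and TGFB2 (0.0960 ± 0.020) last. The values of SMAD2, TGFBR3 and TGFBR1 overlapped, and those of the other neighbours did not. TGFB1 was above 90.1% of the 20003 genes and SMAD6 above 52.6%. In shNUDT21 the order was TGFB1 (47.7 ± 2.12), SMAD3 (20.1 ± 0.47), TGFBR2 (7.67 ± 2.49), SMAD4 (7.30 ± 0.20), SMAD2 (6.47 ± 1.90), TGFBR1 (4.95 ± 0.35), TGFBR3 (3.55 ± 1.58), SMAD7 (2.54 ± 0.15), SMAD6 (1.26 ± 0.33) and TGFB2 (0.110 ± 0.078). SMAD7 thus went from place 3 to place 8. TGFBR2, SMAD4 and SMAD2 overlapped there, as did SMAD2 with TGFBR1 and TGFBR3 with SMAD7.

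Level ratios within a library, which do not depend on its depth, were chosen after the values were seen and are given as a description. SMAD2 over SMAD3 was 0.102 and 0.118 in the controls and 0.260 and 0.383 in shNUDT21 1 and 5. SMAD4 over SMAD3 was 0.152 and 0.159 in the controls and 0.363 and 0.364 in shNUDT21 1 and 5. Both ratios were thus higher in the knockdown libraries, 2.92 and 2.34 times on average, and SMAD3 stayed the most abundant SMAD. These ratios keep the trend of GC content and transcript length. With it removed, the log2 fold changes were 0.28 for SMAD2, 0.18 for SMAD4 and -0.64 for SMAD3, against 0.71, 0.48 and -0.64. SMAD7 over SMAD3 was 0.251 and 0.248 in the controls and 0.134 and 0.119 in shNUDT21 1 and 5. SMAD7 was thus lower relative to SMAD3 as well. SMAD6 over SMAD3 was 0.0754 and 0.0671 in the controls and 0.0756 and 0.05 in shNUDT21 1 and 5. TGFBR2 over TGFBR1 was 1.72 and 1.68 in the controls, 1.14 in shNUDT21 1 and 2.01 in shNUDT21 5, so the knockdown libraries lay on either side of the controls.

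**Figure D3:**
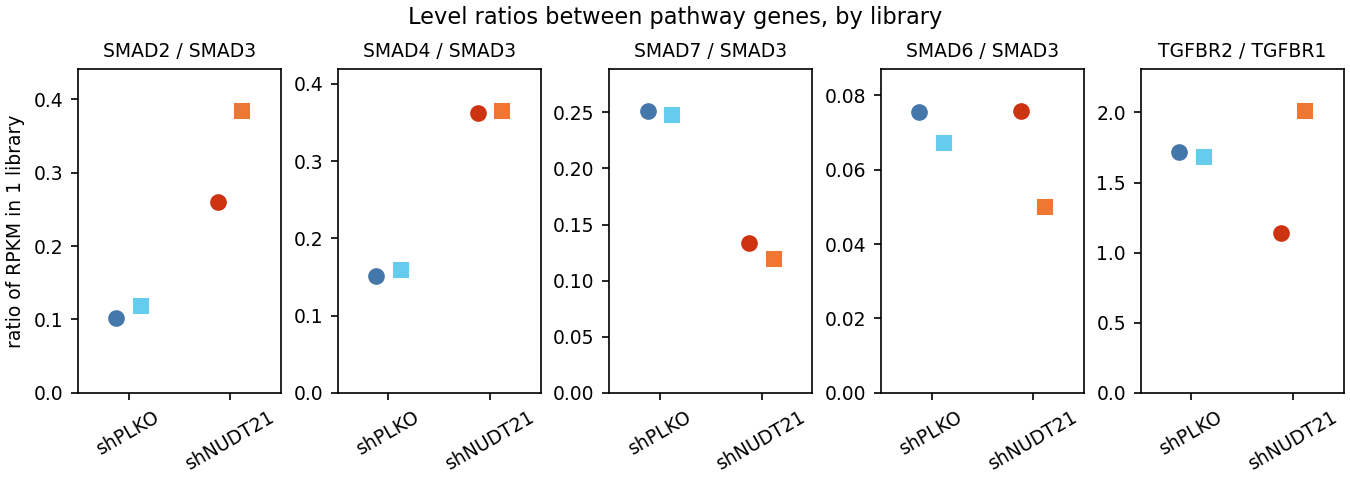
Ratio of the RPKM of a gene to that of another in the same library, with circles for shPLKO 1 and shNUDT21 1 and squares for shPLKO 2 and shNUDT21 5. Each panel has its own axis from 0. SMAD4 over SMAD3 lies at 0.152 and 0.159 in the controls and at 0.363 and 0.364 in the knockdown libraries, and TGFBR2 over TGFBR1 differs between the knockdown libraries, 1.14 against 2.01.

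The knockdown libraries differed from each other for some of these genes and hardly for others. The ratio of shNUDT21 5 to shNUDT21 1 was 1.92 for TGFBR3, 1.59 for TGFBR2, 1.52 for SMAD2, 0.683 for SMAD6 and 0.336 for TGFB2. It was between 0.905 and 1.04 for TGFBR1, SMAD7, TGFB1, SMAD3 and SMAD4. The counting intervals of these 2 libraries were apart for 6 of the 10 genes, and those of the controls for 3. The share over all genes was not computed, so these counts do not set the 10 genes apart. Such intervals are relatively narrower for genes with more reads. Those of TGFB1, at a ratio of 0.939, were only just apart, with bounds of 47.690 RPKM in shNUDT21 1 and 47.685 RPKM in shNUDT21 5. Between the knockdown libraries the median absolute difference on the log2(RPKM + 1) scale was 0.1196 for the 9 genes tested and 0.280 over all genes tested. Between the controls it was 0.109 and 0.0768.

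Because NUDT21 binds UGUA, the motif was counted in the annotated 3' UTRs of the principal transcripts. The median over 10520 genes tested with a 3' UTR of at least 100 bases was 4.95 UGUA per kilobase, in 1159 bases of UTR. SMAD7 had 5.27 per kilobase in 1519 bases, and SMAD3 had 6.44 in 4659 bases. TGFBR1 had the highest density of the 10, with 8.80 per kilobase in 4887 bases, and TGFBR2 the lowest, with 3.55 in 2535 bases. SMAD6 had 8.38 per kilobase in 1313 bases, SMAD4 5.93 in 6572 bases and TGFB1 5.49 in 729 bases. SMAD2 had 5.11 per kilobase in 32870 bases. The annotated transcripts differ in length from the gene models that the values imply. The lengths were 4428 against 3444 bases for SMAD7, 34526 against 17883 for SMAD2 and 3835 against 7530 for SMAD6. They were 6516 against 10054 bases for TGFBR1 and 4621 against 6673 for TGFBR2. The densities thus describe the annotation. A gene-level RPKM does not tell which polyadenylation site was used.

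A UGUA lay between 100 and 40 bases before the annotated transcript end in TGFB1, SMAD2 and SMAD3. None lay there in SMAD7, SMAD4, TGFBR1 or TGFBR2. TGFB2, TGFBR3 and SMAD6 were not searched, and the share over all genes was not computed. The sites in TGFB1 (chromosome 19, minus strand, 75 bases before the end) and SMAD3 (chromosome 15, plus strand, 61 bases before the end) are shown as the kind of element NUDT21 recognises, with the motif in capitals and T for U, from GENCODE v29 on GRCh38, 5′ to 3′ on the sense strand.
TGFB1: cacttttaaaaaaTGTAcacctgtggtccc
SMAD3: cctctcttcctctTGTAagtgcccttctaa
A match is a description of the annotation, and the use of these sites was not measured.

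The palindrome GTCTAGAC, a sequence that SMAD3 and SMAD4 bind in vitro, was searched for in the RefSeq promoter windows, from 250 bases before to 50 bases after each annotated gene start. It reads the same on both strands. It was in 1 of the 25 windows of the 10 genes, in SMAD6, against 0.202% of all 35116 windows. The SMAD6 window is chr15:66701986-66702285 (GRCh38.p14, plus strand), and the palindrome begins at base -12 from the start. It is printed because SMAD6, an inhibitory SMAD, was the gene of the 10 whose window held it.
SMAD6: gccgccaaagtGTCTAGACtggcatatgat
The capitals mark the palindrome. The windows of SMAD7 did not hold these letters, and sequence outside the windows was not searched. The 1 match in 25 windows is given as a description. The shorter element CAGAC, on either strand, was in 10 of the 25 windows, of SMAD3, SMAD7, TGFB2 and TGFBR1, and in 45.3% of all windows.

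Other genes of the pathway were read from 8 lists with 97 different genes, of which 71 were tested. Of these, 1 was called higher and 3 lower (limma, 24 at an unadjusted p under 0.05), and their median log2 fold change was 0.11. The shares were 5.63% called and 33.8% at an unadjusted p under 0.05, close to the 5.82% and 33.9% of all genes tested.

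Among other ligands of the family, 0 of 6 tested passed (2 at an unadjusted p under 0.05, limma), and the median log2 fold change was 0.03 (-0.44 without shNUDT21 1). AMH, the anti-Müllerian hormone, stood at 4.43 and 4.56 RPKM in the controls and at 2.23 and 0.937 RPKM in shNUDT21 1 and 5 (log2 fold change -1.14, adjusted p 0.0674). BMP7, a bone morphogenetic protein, had a ratio of 0.622 (adjusted p 0.0670). Among genes of latency and activation, 0 of 7 passed (2 at an unadjusted p under 0.05, limma, median -0.08). LTBP3, which binds latent TGF-beta, had a ratio of 0.711, and FURIN, a protease that cleaves the TGF-beta precursor, a ratio of 1.97, with 41.5 RPKM in shNUDT21 1 and 73.2 RPKM in shNUDT21 5.

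Among other receptors and co-receptors, 1 of 10 tested rose and 0 fell, with 9 positive fold changes and a median of 0.26. With the GC content and length trend removed, 0 of the 10 passed, 5 were positive and the median was 0.06. Of the 10, 3 then had an unadjusted p under 0.05 (limma), against 3368 of all 11051 genes tested. The gene that rose was CD109, a surface protein that binds TGF-beta and inhibits its signalling, from 5.78 and 7.26 RPKM to 13.9 and 18.5 RPKM (log2 fold change 1.19, SE 0.20, limma adjusted p 0.0457). With the GC content and length trend removed CD109 stood at 0.83 (adjusted p 0.0669), and its exons overlap an antisense gene. NRP1, a co-receptor, stood at 1.08 and 1.05 RPKM in the controls and at 3.70 and 1.92 RPKM in shNUDT21 1 and 5, without passing. Exons of NRP1 overlap an antisense gene by 561 bases. SMAD1, the BMP counterpart of SMAD2 and SMAD3, was at 1.67 times its control level (adjusted p 0.0697). Its relative SMAD5 had a ratio of 1.01.

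Among SMAD partners, repressors and ubiquitin regulators, 0 of 17 rose and 1 fell, and 14 fold changes were positive (median 0.25). Without shNUDT21 5, 9 were positive with a median of 0.005, and with the GC content and length trend removed 11 were positive with a median of 0.10. The gene that fell was STUB1, a ubiquitin ligase that acts on chaperone clients and on SMAD3, from 68.4 and 63.7 RPKM to 30.2 and 31.0 RPKM (log2 fold change -1.08, SE 0.12, limma adjusted p 0.0406). Its exons overlap those of JMJD8 on the opposite strand by 983 bases, and with the GC content and length trend removed its adjusted p was 0.0533. TRIM33, which binds SMAD2 and SMAD3 and ubiquitinates SMAD4, had a ratio of 1.70 (adjusted p 0.0770).

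Of 18 textbook TGF-beta and SMAD3 targets tested, 2 fell and 0 rose, with 8 positive fold changes, 8 at an unadjusted p under 0.05 and a median of -0.09. The median was 0.14 without shNUDT21 1 and -0.31 without shNUDT21 5. CTGF, a matricellular protein, fell to 23.7% of control, to 5.32 and 6.81 RPKM (log2 fold change -1.92, SE 0.18, limma adjusted p 0.0406). Its exons overlap an antisense gene by 195 bases. SNAI1, a repressor of E-cadherin known from the epithelial to mesenchymal transition, fell to 55.8% of control (adjusted p 0.0444, and 0.0637 with the GC content and length trend removed). Of 4 BMP targets tested, 0 passed (0 at an unadjusted p under 0.05, limma, median -0.19, and 0.01 with the GC content and length trend removed). ID2, an inhibitor of basic helix-loop-helix factors, stood at 311.1 and 311.2 RPKM in the controls, 126 RPKM in shNUDT21 1 and 265 RPKM in shNUDT21 5. BAMBI, a pseudoreceptor that dampens signalling, had a ratio of 1.18. Of 10 genes of SMAD-independent TGF-beta signalling, 0 passed (5 at an unadjusted p under 0.05, limma) and 7 had positive fold changes (median 0.33). With the GC content and length trend removed, 2 had such a p, against 3368 of all 11051 genes tested, and the median was 0.12. PAK2 and ROCK1, kinases that act on the cytoskeleton, had ratios of 1.91 (adjusted p 0.0532) and 1.42 (adjusted p 0.0881). With that trend removed the log2 fold change of ROCK1 went from 0.45 to 0.12 (adjusted p 0.470). These 4 calls ended, as that of SMAD7 did, without shPLKO 1, without shPLKO 2 or with no filter on low values, where the lowest adjusted p of CTGF was 0.0653.

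**Figure D4:**
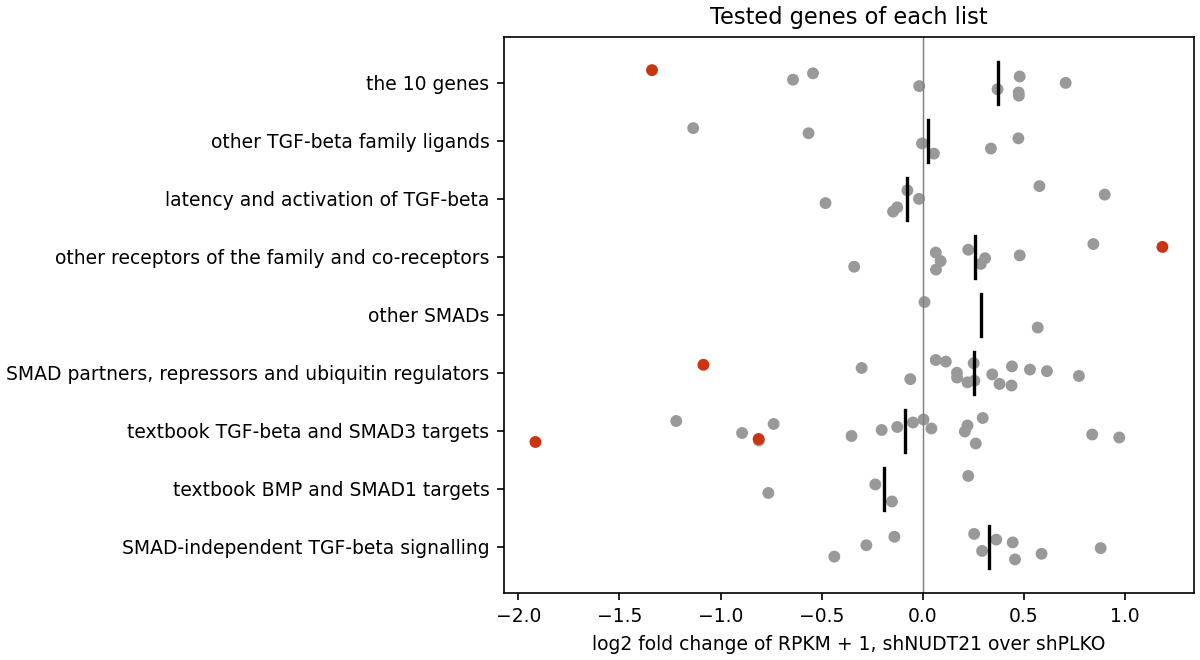
Log2 fold change of RPKM + 1, shNUDT21 over shPLKO, for each tested gene of the 10 genes and of 8 further lists, with red for an adjusted p under 0.05 (limma) and a black bar at the median of each list. The red points are SMAD7 among the 10 genes, CD109 on the right, and STUB1, CTGF and SNAI1 on the left.

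Genes whose profile over the 4 libraries was among the most like that of SMAD7 were MFSD3 and ZCCHC12, with a root mean square difference of 0.0136 and 0.0414 on the log2 scale after centring on the controls. MFSD3 stood at 24.98 and 24.5 RPKM in the controls and at 9.55 and 8.75 RPKM in shNUDT21 1 and 5. For TGFBR2 they were NRDC, DNAJC1 and TMTC3 (0.00814, 0.0189 and 0.0216). NRDC had 45.4 RPKM in shNUDT21 1 and 69.3 RPKM in shNUDT21 5, against 40.4 and 46.4 RPKM in the controls, the same order of libraries as TGFBR2. Likeness over 4 libraries is a description.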

How the data were processed

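The authors deposited 1 table per library with 1 value per gene symbol. No header states a unit. From their size and steps the deposited values were read as RPKM on a linear scale. Bowtie 0.12.2 and the build hg18 appear in the submitters' processing notes, with no role given. How genes were counted, from which annotation and with or without strand is not given in the sources used here.

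Of 20030 rows, 27 held a date in place of a symbol and were left out. Total reads were recovered from the steps between low values, matched to transcript lengths (250 transcripts gave the same total, against 10 for the next), and reads per gene from the smallest whole gene model length. Counting intervals are exact Poisson at 95%. Groups were compared in R 4.3.3 with limma 3.58.1, letting the variance follow the level (2 residual and 2.71 prior degrees of freedom), and the fit was tested on simulated data. The alternatives were another pseudocount, no filter, no variance trend, TMM or quantile scaling, removal of the GC content and length trend, and leaving out each library. GENCODE v29 (GRCh38) gave lengths, GC content (99.3% of genes tested), UTRs and overlaps. Not every exon overlap found is named. An exact permutation test of 2 against 2 libraries cannot go below 0.333.

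The members, lists and tests were chosen with earlier results of these data known. The text names NUDT21, the 10 genes, in each list every called gene and the 2 with the lowest p, and for TGFBR2 and the gene with the lowest p the 3 genes with the most similar profile. Of the genes so chosen, 1 is not reported here.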

Additional observations from a re-analysis of the deposited data

How the results depend on the processing

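No paired analysis was possible because the groups share only replicate number 1. A pseudocount of 0.1, no intensity trend, TMM scaling and quantile normalisation left the calls of the 10 genes at 0 higher and 1 lower. With no filter on low values, 0 genes were called higher and 0 lower of 17606 (limma, 4762 at an unadjusted p under 0.05), so 0 of the 10 genes and 0 and 0 genes of the further lists were called, with NUDT21 at -2.58 and SMAD7 at -1.34 (both adjusted p 0.0653). With the GC content and length trend removed, 157 genes were called higher and 122 lower, and 0 and 1 of the further lists. SMAD5, at 0.01, was at -0.038 under quantile normalisation and at -0.36 with that trend removed. The causes of these changes were not tested. With no filter, more genes entered both the adjustment and the estimate of the variance. Leaving out 1 library left the other group's pair to set the spread, and the lone library was assumed to vary like it. Without shPLKO 1 or 2 the test called 1 or 0 genes (1031 and 1198 at an unadjusted p under 0.05, limma), and without shNUDT21 1 or 5 it called 3639 or 3766 higher and 4005 or 3506 lower. Over the 4 omissions genes called higher ran from 0 to 3766, lower from 0 to 4005, among the 10 genes from 0 to 6 and 0 to 4, and among the further lists from 0 to 36 and 0 to 22. The log2 fold change ran from -2.73 to -2.42 for NUDT21, 0.43 to 0.52 for TGFB1, 0.38 to 0.57 for TGFBR1, 0.074 to 0.67 for TGFBR2, -0.38 to 0.34 for TGFBR3, 0.45 to 0.97 for SMAD2, -0.66 to -0.62 for SMAD3, 0.45 to 0.51 for SMAD4, -0.69 to -0.39 for SMAD6, -1.38 to -1.30 for SMAD7 and -0.17 to 0.19 for SMAD5. TGFBR3 turned positive without shNUDT21 1 (0.34) and without shPLKO 2 (0.06). TGFB2, at 10 to 30 reads, limits any statement on that ligand.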

Other observations

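The following genes of the further lists were singled out after their values were seen, and they are given as values. PMEPA1, a TGF-beta target that sequesters SMAD2 and SMAD3, stood at 1.71 and 1.64 RPKM in shPLKO 1 and 2 and at 0.671 and 0.242 RPKM in shNUDT21 1 and 5. It was lower in both knockdown libraries (log2 fold change -0.89, SE 0.18, limma adjusted p 0.0564), and its exons overlap the antisense gene NKILA by 343 bases. ADAM19, CYR61 and BHLHE40 were also lower in both, each at an unadjusted p under 0.05 (limma) without passing. They stood at 39.9%, 56.8% and 59.9% of control. Other targets of that list were higher in both knockdown libraries without passing. SNAI2, a relative of SNAI1, had 0.793 and 0.953 RPKM in shPLKO 1 and 2, 1.94 RPKM in shNUDT21 1 and 3.59 RPKM in shNUDT21 5 (limma adjusted p 0.0732). CDKN2B, an inhibitor of cyclin-dependent kinases, was at 1.96 times its control mean (limma adjusted p 0.104).

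LRRC32, a membrane protein that holds latent TGF-beta, was under the level filter, at 1.13 and 1.11 RPKM in the controls. In shNUDT21 1 and 5 it stood at 0.281 and 0.396 RPKM. SMURF2, a ubiquitin ligase that SMAD7 brings to the receptors, stood at 19.3 and 22.2 RPKM in the controls, 20.5 RPKM in shNUDT21 1 and 62.7 RPKM in shNUDT21 5, so it stood apart in 1 knockdown library.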
